A study of Mus musculus with 12 samples.

Results

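The Wnt pathway genes of adult mouse neural stem cells (NSCs) were followed through 3 culture conditions. They comprised 57 genes of the 17365 in the count table, taken by symbol alone: the Wnt ligands, their Frizzled receptors and the co-receptors Lrp5 and Lrp6, the R-spondins with their Lgr receptors and the ubiquitin ligases Rnf43 and Znrf3, the secreted or surface inhibitors (Sfrp, Dkk, Wif1, Notum and Apcdd1), the cytoplasmic components Ctnnb1, Axin1, Axin2, Nkd1 and Nkd2, and the transcription factors of the Tcf/Lef family. The RNA came from 12 bulk libraries of NSCs taken from the subventricular zone of mice 6 to 8 weeks old and kept in culture for fewer than 10 passages. The ANS4 line derives from MF1 mice and the BL6 line from C57BL/6 mice, and each line is represented by 2 libraries per condition. The EGF/FGF condition held proliferating cells with EGF and FGF2. The BMP condition held cells given BMP4 without EGF or FGF2 (d-qNSCs, dormant-like), and the BMP/FGF condition held cells given BMP4 with FGF2 and without EGF (p-qNSCs, primed-like). Cultures had 3 days of treatment, with each factor at 10 ng/ml. Each strain is represented by 1 line, so a difference between strains cannot be told apart from a difference between those cultures. The p-values within a line and for line differences measure the spread between replicate cultures of the lines. In comparisons over both lines the spread also holds unequal responses of the lines. The comparisons ask how the quiescent cells differ from proliferating cells and what FGF2 adds to BMP4.

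Wnt proteins are secreted lipid-modified ligands. In the canonical branch a Wnt bound to a Frizzled receptor and Lrp5 or Lrp6 stops the destruction complex built on Axin1 or Axin2, so that beta-catenin (Ctnnb1) accumulates and joins Tcf/Lef factors on DNA. Axin2, Nkd1, Notum, Rnf43, Znrf3, Apcdd1, Lgr5, Lef1 and Tcf7 are known as targets of the pathway in several tissues, and many of them dampen it. Rnf43 and Znrf3 remove Frizzled receptors from the surface, and R-spondins bound to Lgr4, Lgr5 or Lgr6 protect the receptors from them. In the adult brain Wnt signalling is known for its part in stem cell maintenance, proliferation and neurogenesis.

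Of the 57 genes, 41 had enough counts to be tested and 35 of these reached a mean of 1 CPM (a gene's count scaled to the library total) over all libraries. The 12 libraries held between 18069052 and 19451818 counts, and 3 counts, taken as the detection floor, equalled 0.154 to 0.166 CPM. The 16 genes that were not tested had at most 8 counts in any library. They were the ligands Wnt2, Wnt3, Wnt6, Wnt8a, Wnt8b, Wnt9b, Wnt10a, Wnt10b, Wnt11 and Wnt16, the R-spondins Rspo2, Rspo3 and Rspo4, and the inhibitors Dkk1, Dkk2 and Wif1. Wnt3 held the 8 counts and Wnt6 reached 7, whereas Wnt8a, Wnt10a, Rspo2 and Rspo3 never exceeded 1. At this depth such genes can be called neither changed nor absent.

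Against EGF/FGF, 19 of the 41 tested members were higher in BMP and 14 were lower at an edgeR false discovery rate (FDR) under 0.05, a share of 80.5% beside 79% of all 13641 genes tested (40.2% higher, 38.8% lower). In BMP/FGF 17 were higher and 14 lower than in EGF/FGF, or 75.6% beside 78.1% of all genes (40% higher, 38.1% lower). Both shares lay near the background, so the number of Wnt genes that changed was not itself distinctive. Between the quiescent conditions, 8 members were higher in BMP/FGF than under BMP and 14 were lower, or 53.7% beside 40.8% of all genes (19.2% higher, 21.5% lower). With a log2 fold change past 1.5 in either direction as a further condition, 10 members remained for BMP against EGF/FGF (18.5% of all genes passed), 8 for BMP/FGF against EGF/FGF (17.4% of all genes) and 1, Lgr6, for BMP/FGF against BMP (1.91% of all genes). The median log2 fold change over tested members was 0.26, 0.14 and -0.12 in these comparisons, beside 0.02, 0.01 and -0.01 over all genes. The first 2 comparisons share the EGF/FGF libraries, the first and last share the BMP libraries, and the other pair shares those of BMP/FGF.

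**Figure D1:**
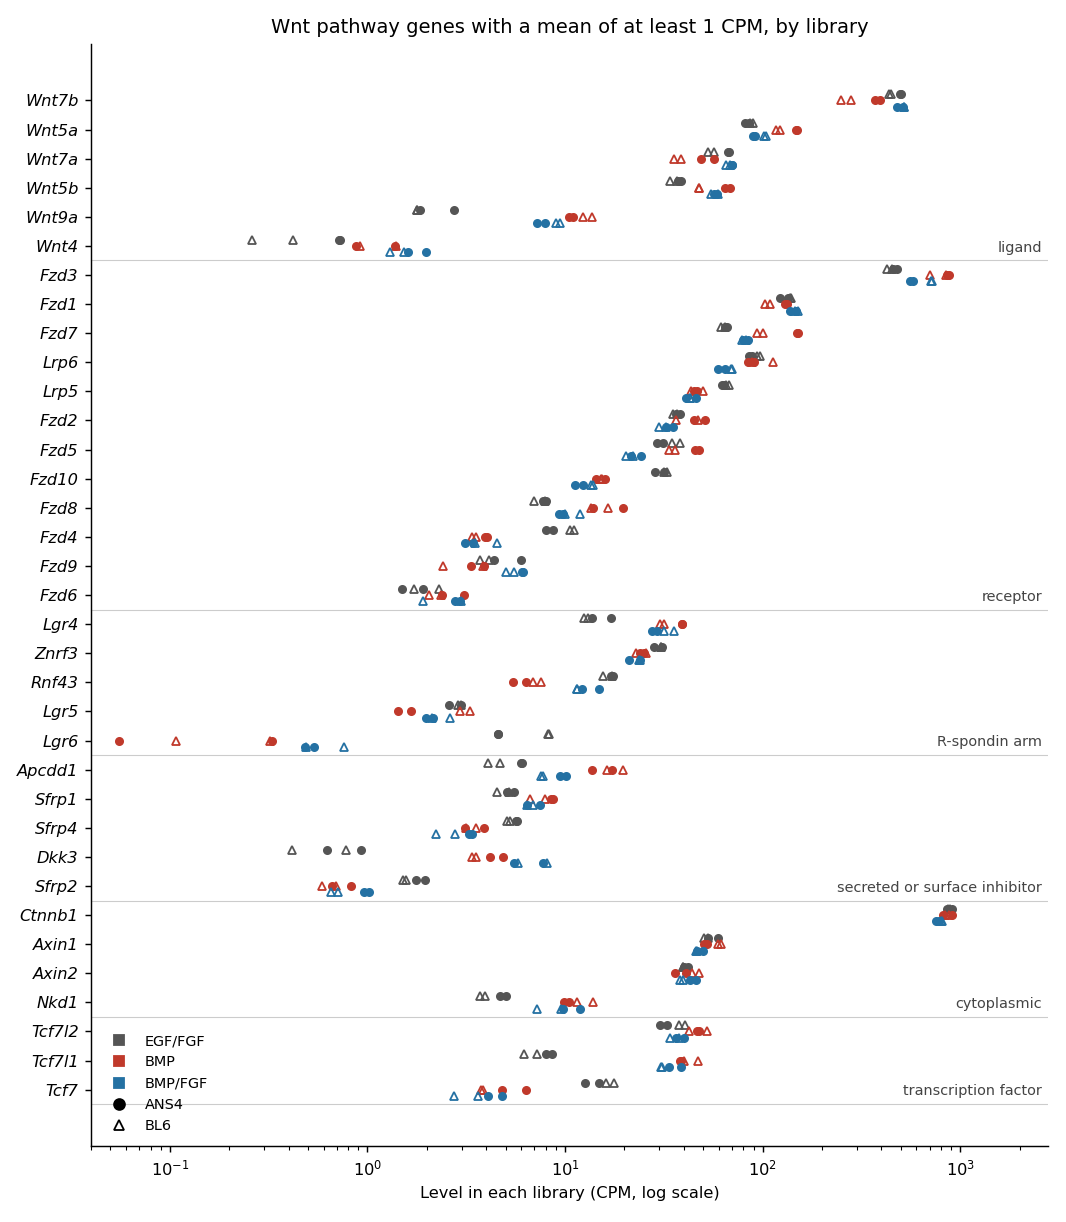
Level of each of the 35 members with a mean of at least 1 CPM, on a log axis in CPM, with 1 point per library, coloured by condition and shaped by line (filled circles ANS4, open triangles BL6). The BMP and BMP/FGF points of Tcf7l1, Wnt9a and Dkk3 lie to the right of their EGF/FGF points, and those of Lgr6 and Tcf7 to the left.

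Cell type markers moved with the same conditions. The summed level of 10 NSC markers, Sox2, Nes, Sox9 and Slc1a3 among them, was 7451 to 7954 CPM (EGF/FGF), 9630.0 to 10603 (BMP) and 11168 to 11520.0 (BMP/FGF), and no marker of that list averaged below the floor. The sum was carried by Vim and Slc1a3, which averaged 2696 and 1184 CPM in EGF/FGF, 4752 and 3097 in BMP and 4656 and 3633 in BMP/FGF, and the members of the list did not move together. Nes averaged 570.4 CPM in EGF/FGF, 128 in BMP and 114 in BMP/FGF, Fabp7 averaged 2413, 480.1 and 1364, and Hes5 averaged 9.24, 4.04 and 6.69, each lower in both quiescent conditions. The 7 astrocyte markers found, out of 8, summed to 1640.4 to 2005 CPM (EGF/FGF), 4974 to 6328 (BMP) and 7993 to 8146 (BMP/FGF). The 10 neuroblast and young neuron markers summed to 589 to 615 CPM (EGF/FGF), 1402 to 2279 (BMP) and 968 to 1070.1 (BMP/FGF), with Dlx5 at 0 to 0.0521 CPM in EGF/FGF. Map2 made up most of the sum in EGF/FGF and BMP/FGF, averaging 555, 974 and 795 CPM in that order. Dcx averaged 1.30, 285 and 49.1 CPM, and Sp8 averaged 1.75, 5.54 and 0.663, its lowest value in BMP/FGF. The 9 oligodendrocyte lineage markers summed to 1534 to 1678 CPM, 809 to 1311 and 924 to 1030.2 in the same order. Ependymal markers (5 of 6 found) summed to 63.0 to 83.0 CPM (EGF/FGF), 229 to 275 (BMP) and 209 to 222 (BMP/FGF). Microglial (6 of 12 found), endothelial (5 of 7) and pericyte or fibroblast (7 of 8) lists stayed at or under 47.3 CPM in sum in every library. These sums cover only the markers found. Csf1r and Lum were at 0 in all BMP libraries. In bulk RNA, fewer cells of a type and less RNA per cell cannot be told apart. The part of these markers in the Wnt gene values was not tested.

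Promoter sequence was not used in the choice of genes. RefSeq windows of 250 bases before a transcription start (build GRCm38.p6) were found for 37 of the 57 members, 47 windows in all. Their median GC content was 66.4% with a median of 17 CpG, beside 52.4% and 6 over all 32851 windows. This was not a feature of every member, since windows of Fzd1 (51.2%), Wnt8b (48.4%), Rnf43 (45.2% and 44.4%), Tcf7l2 (40.8%) and Lef1 (50.8% and 44.8%, the latter printed here) lay below that overall median. The letters of a Tcf/Lef site (CTTTGAA and CTTTGAT and also CTTTGTA and CTTTGTT, which cannot overlap each other on 1 strand, searched on both strands) occurred in 6 of the 47 windows, or 12.8%, beside 14.8% of all windows. They lay upstream of Dkk1, Fzd7, Lef1, Tcf7l2, Wnt11 and Wnt5b. A match of letters is a description and not a binding site, and a window without them shows only that they are not in these bases. The windows below belong to the genes on which the results turn: Axin2, the usual transcriptional readout of the pathway, Tcf7l1 and Lgr6, which had large changes in opposite directions, and Fzd7 and Lef1, which changed and hold a match, shown in capitals. Axin2 lies at chr11:108920099-108920348 on the plus strand, Tcf7l1 at chr6:72789046-72789295 and Lgr6 at chr1:135105277-135105526 on the minus strand, Fzd7 at chr1:59481897-59482146 and Lef1 at chr3:131156044-131156293 on the plus strand.
Axin2: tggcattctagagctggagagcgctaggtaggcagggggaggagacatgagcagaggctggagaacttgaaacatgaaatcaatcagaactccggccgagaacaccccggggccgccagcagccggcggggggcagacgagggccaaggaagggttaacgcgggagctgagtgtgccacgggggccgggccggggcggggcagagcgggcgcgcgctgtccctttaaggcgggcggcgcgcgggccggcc
Tcf7l1: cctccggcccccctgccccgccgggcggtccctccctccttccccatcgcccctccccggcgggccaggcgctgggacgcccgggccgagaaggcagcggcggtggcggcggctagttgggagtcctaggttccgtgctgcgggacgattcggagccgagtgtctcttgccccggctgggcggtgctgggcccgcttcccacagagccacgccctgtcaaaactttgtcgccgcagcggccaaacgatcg
Lgr6: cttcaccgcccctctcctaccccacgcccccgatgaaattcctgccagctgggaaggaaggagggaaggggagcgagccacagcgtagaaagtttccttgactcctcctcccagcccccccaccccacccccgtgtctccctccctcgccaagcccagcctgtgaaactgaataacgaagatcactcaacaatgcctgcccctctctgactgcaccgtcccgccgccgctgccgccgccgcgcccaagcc
Fzd7: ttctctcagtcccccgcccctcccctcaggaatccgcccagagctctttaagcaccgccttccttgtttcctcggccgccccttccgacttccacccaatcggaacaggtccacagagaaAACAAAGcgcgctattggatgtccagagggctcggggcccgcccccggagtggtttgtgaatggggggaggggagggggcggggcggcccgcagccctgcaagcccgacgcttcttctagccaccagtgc
Lef1: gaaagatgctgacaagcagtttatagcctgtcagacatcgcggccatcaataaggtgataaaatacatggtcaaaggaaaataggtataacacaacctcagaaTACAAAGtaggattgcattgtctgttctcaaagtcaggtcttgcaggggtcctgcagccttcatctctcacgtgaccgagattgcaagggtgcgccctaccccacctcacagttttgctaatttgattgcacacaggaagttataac
In Fzd7 the match was CTTTGTT on the opposite strand, beginning 130 bases before the start. In Lef1 it was CTTTGTA on the opposite strand, 147 bases before a start inside the gene, and the other Lef1 windows held none.

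The Tcf/Lef factors, which carry the signal to DNA, changed in opposite directions on leaving EGF/FGF. Tcf7l1, known mainly as a repressor of Wnt targets, stood at 8.64 and 7.97 CPM in ANS4 and 7.20 and 6.20 in BL6 under EGF/FGF. In BMP its libraries held 38.9 and 38.0 in ANS4, 40.2 and 47.3 in BL6, and in BMP/FGF 33.6 and 38.4 in ANS4, 30.6 and 30.9 in BL6. Every quiescent library lay above every EGF/FGF library, a rise of 5.39-fold in BMP (log2 fold change 2.43 ± 0.10 SE, edgeR FDR = 3.23e-13) and 4.48-fold in BMP/FGF (2.16 ± 0.10, FDR = 1.7e-12). Tcf7, expressed as an activating and as a truncated form, went the other way. It measured 14.9 and 12.6 CPM in ANS4 and 17.6 and 16.1 in BL6 under EGF/FGF, then 4.78 and 6.36 in ANS4, 3.74 and 3.87 in BL6 under BMP, and 4.82 and 4.07 in ANS4, 3.64 and 2.73 in BL6 under BMP/FGF. Neither quiescent group overlapped EGF/FGF, and Tcf7 fell 3.35-fold in BMP (log2 fold change -1.75 ± 0.17, FDR = 2.21e-08) and 4.01-fold in BMP/FGF (-2.0 ± 0.17, FDR = 5.17e-09). The gene-level counts do not separate its forms.

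Lef1, the family member most often named as an activator, was rare. Its libraries held 1.09 and 1.34 CPM in ANS4 and 1.57 and 1.67 in BL6 in EGF/FGF, 0.385 and 0.221 in ANS4, 0.214 and 0.430 in BL6 in BMP, and 0.749 and 0.589 in ANS4, 0.706 and 0.982 in BL6 in BMP/FGF. These values correspond to 21 to 32, 4 to 8 and 11 to 18 counts, and the 3 conditions did not overlap. Lef1 was 4.53-fold lower in BMP than in EGF/FGF (log2 fold change -2.18 ± 0.29, FDR = 2.07e-06), 1.84-fold lower in BMP/FGF (-0.88 ± 0.25, FDR = 0.00347) and 2.46-fold higher in BMP/FGF than under BMP (1.3 ± 0.33, FDR = 0.00428). Within the lines the last difference passed in BL6 (FDR = 0.0182) and did not in ANS4 (log2 fold change 1.12, FDR = 0.102). Tcf7l2, the member common in glia, measured 35.4 ± 4.62 CPM in EGF/FGF, 47.1 ± 4.06 in BMP and 37.1 ± 2.64 in BMP/FGF (mean ± SD, n = 4). It rose in BMP by 0.39 on the log2 scale (FDR = 0.000636) with no overlap of libraries, and the BMP/FGF libraries overlapped those of EGF/FGF (FDR = 0.394). Between the quiescent conditions Tcf7l2 was 1.24-fold and Tcf7l1 1.20-fold lower in BMP/FGF (FDR = 0.0111 and 0.0254). Neither of those calls held on leaving out single libraries: the Tcf7l2 call was lost without BL6 BMP/FGF replicate 1 (log2 fold change -0.25, FDR = 0.051), and the Tcf7l1 call without ANS4 BMP/FGF replicate 1 or any 1 of the 4 BL6 libraries of the compared conditions (to -0.16, FDR = 0.126 without BL6 BMP replicate 2).

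**Figure D2:**
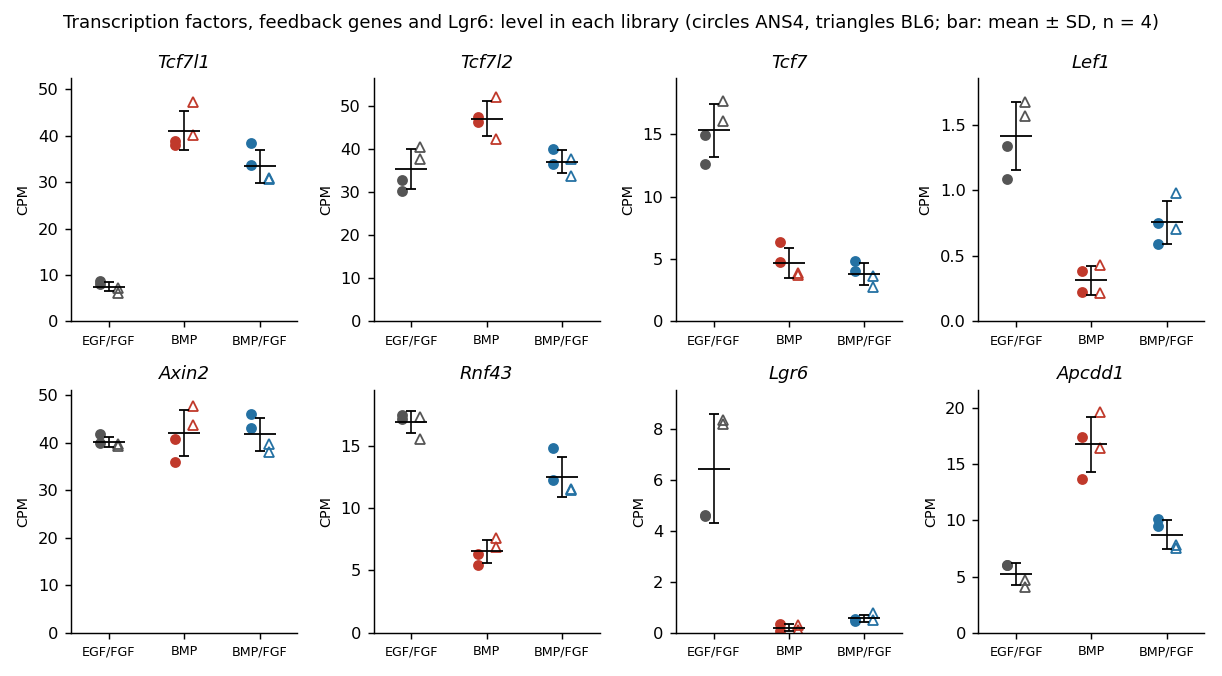
Level in CPM, on axes that start at 0, of the Tcf/Lef factors, the feedback genes Axin2, Rnf43 and Apcdd1, and Lgr6 in each library (circles ANS4, triangles BL6), with the mean and SD of 4 libraries per condition. Tcf7l1 and Tcf7 separate quiescent from EGF/FGF libraries in opposite directions, Rnf43 and Lef1 are lowest in BMP, Apcdd1 is highest in BMP, and the Axin2 groups overlap.

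Beta-catenin itself and the Axins changed little. Ctnnb1 measured 881 ± 24.6 CPM in EGF/FGF, 864 ± 41.0 in BMP and 785 ± 22.8 in BMP/FGF (mean ± SD, n = 4), and the BMP and EGF/FGF libraries overlapped (log2 fold change -0.05 ± 0.06, edgeR FDR = 0.419). Its value in BMP/FGF was 1.11-fold below EGF/FGF (FDR = 0.0275), a call lost without either ANS4 BMP/FGF library, ANS4 EGF/FGF replicate 2 or BL6 EGF/FGF replicate 2 (to -0.14, FDR = 0.0767). Within the lines it passed in ANS4 (-0.21, FDR = 0.0042) and not in BL6 (-0.09, FDR = 0.165). The lines did not differ there at the threshold (FDR = 0.474). Transcript level says nothing of the amount of stabilised protein. Axin2, the target most often read as a sign of pathway activity, held 41.8 and 40.0 CPM in ANS4 and 39.8 and 39.4 in BL6 in EGF/FGF. The BMP libraries held 36.1 and 40.8 in ANS4, 43.8 and 47.7 in BL6, and the BMP/FGF libraries 46.1 and 43.1 in ANS4, 38.2 and 39.7 in BL6. The groups overlapped in every comparison, with log2 fold changes of 0.04 ± 0.08, 0.07 ± 0.08 and 0.03 ± 0.08 (SE) for BMP against EGF/FGF, BMP/FGF against EGF/FGF and BMP/FGF against BMP (FDR = 0.662, 0.443 and 0.803). The last value joins lines that moved in opposite directions, each without overlap of its libraries. Axin2 stood at 0.21 in ANS4 (FDR = 0.0648) and -0.15 in BL6 (FDR = 0.154). Their difference, BL6 minus ANS4, was -0.36 and narrowly missed the threshold (FDR = 0.0506). Axin2 was one of 2 members with a mean of at least 1 CPM that passed no comparison in the main test, the other being Lgr5.

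Axin1, the constitutive scaffold, measured 53.8 ± 3.82 CPM in EGF/FGF, 55.9 ± 5.56 in BMP and 47.3 ± 1.63 in BMP/FGF. It was 1.13-fold lower in BMP/FGF than in EGF/FGF (FDR = 0.0321) and 1.15-fold lower than in BMP (FDR = 0.0305). Each call was lost on leaving out single libraries. For the first these were ANS4 BMP/FGF replicate 1, both ANS4 EGF/FGF libraries, both BL6 BMP/FGF libraries and BL6 EGF/FGF replicate 2 (to -0.12, FDR = 0.146). For the second they were ANS4 BMP/FGF replicate 1, ANS4 EGF/FGF replicate 1 and the BL6 libraries other than EGF/FGF replicate 1 (to -0.15, FDR = 0.121). Within the lines the first passed in ANS4 alone (-0.23, FDR = 0.0117) and the second in BL6 alone (-0.30, FDR = 0.00354). In BMP against EGF/FGF Axin1 stood at -0.13 in ANS4 (FDR = 0.12) and 0.18 in BL6 (FDR = 0.0332). No line difference of Axin1 passed (FDR = 0.0721 to 0.622). Nkd1 and Nkd2, which bind Dishevelled and restrain the pathway, were the cytoplasmic members with large changes. Nkd1 ran over 3.70 to 5.02 CPM (EGF/FGF), 9.84 to 13.9 (BMP) and 7.22 to 11.9 (BMP/FGF). Its quiescent libraries all lay above EGF/FGF, 2.60-fold in BMP (FDR = 1.28e-07) and 2.24-fold in BMP/FGF (FDR = 1.48e-06). Nkd2 stood at 3 to 11 counts (EGF/FGF), 23 to 29 (BMP) and 14 to 17 (BMP/FGF). It was higher in BMP than in EGF/FGF by 2.02 on the log2 scale (FDR = 6.6e-06) and in BMP/FGF by 1.28 (FDR = 0.00163). Within the lines the BMP/FGF difference passed in BL6 (2.01, FDR = 0.00117) and not in ANS4 (0.79, FDR = 0.0858), and the lines did not differ at the threshold (FDR = 0.32). A drop of Nkd2 from BMP to BMP/FGF (-0.74 ± 0.25, FDR = 0.0284) was lost on leaving out any 1 of 6 of the 8 libraries compared, all but ANS4 BMP replicate 1 and BL6 BMP/FGF replicate 1 (to -0.66, FDR = 0.0834).

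Wnt7b, Wnt7a, Wnt5a and Wnt5b were the most abundant ligands. Per kilobase of transcript, with the median length of a gene's coding transcripts in GENCODE vM21, Wnt7b stood first in every condition at 150.5 ± 11.1 CPM per kilobase in EGF/FGF, 103 ± 22.4 in BMP and 162 ± 6.49 in BMP/FGF (mean ± SD, n = 4). In EGF/FGF Wnt7a (19.2 ± 2.31), Wnt5b (16.3 ± 0.870) and Wnt5a (16.1 ± 0.597) followed. Their ranges over libraries overlapped, at 16.7 to 21.3, 15.1 to 17.1 and 15.3 to 16.8, but within each library Wnt7a stood above both others. In BMP Wnt5b (25.4 ± 4.87) and Wnt5a (25.2 ± 3.18) could not be ordered and stood above Wnt7a (14.2 ± 3.04). In BMP/FGF the order was Wnt5b (25.5 ± 0.919), Wnt7a (21.6 ± 0.714) and Wnt5a (18.1 ± 1.37). Wnt9a came next at 0.613 ± 0.142, 3.57 ± 0.434 and 2.52 ± 0.295, and Wnt4 and Wnt2b stayed below 1 CPM per kilobase. With the longest transcript as the length, Wnt5a lay below Wnt7a and Wnt5b in EGF/FGF, and in BMP it stood at 19.2 ± 2.42 and overlapped both Wnt5b and Wnt7a.

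Wnt7a and Wnt7b were lower in BMP and were higher again with FGF2. These close relatives are known to signal through beta-catenin in the brain. Wnt7b held 499 and 504 CPM in ANS4 and 437 and 446 in BL6 in EGF/FGF, 371 and 394 in ANS4, 248 and 279 in BL6 in BMP, and 477 and 512 in ANS4, 519.7 and 519 in BL6 in BMP/FGF. Every BMP library lay below every other library. Wnt7b fell 1.5-fold in BMP (log2 fold change -0.58 ± 0.10 SE, edgeR FDR = 4.44e-05) and was 1.64-fold higher in BMP/FGF than under BMP (0.71 ± 0.10, FDR = 3.14e-05), with 0.13 ± 0.10 between BMP/FGF and EGF/FGF (FDR = 0.25). Wnt7a held 67.6 and 66.8 CPM in ANS4 and 56.7 and 52.9 in BL6 in EGF/FGF, 48.9 and 56.7 in ANS4, 38.9 and 35.6 in BL6 in BMP, and 70.4 and 70.1 in ANS4, 65.5 and 68.1 in BL6 in BMP/FGF. Its BMP libraries overlapped those of EGF/FGF and lay below all of BMP/FGF. The changes of Wnt7a were -0.47 ± 0.09 (FDR = 9.02e-05), 0.66 ± 0.09 (FDR = 1.45e-05) and 0.19 ± 0.09 (FDR = 0.0528) in the same order. The last of these, a higher value in BMP/FGF than in EGF/FGF, passed on leaving out any 1 of 6 libraries (ANS4 BMP replicate 2, both ANS4 BMP/FGF libraries, both BL6 BMP libraries and BL6 EGF/FGF replicate 1), at 0.20 and FDR = 0.0227 without BL6 BMP replicate 2.

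Wnt5a and Wnt5b, known mainly for beta-catenin-independent signalling, were higher in BMP. Wnt5a held 85.3 and 81.6 CPM in ANS4 and 89.4 and 86.0 in BL6 in EGF/FGF, 148 and 149.5 in ANS4, 122 and 117 in BL6 in BMP, and 91.2 and 89.4 in ANS4, 104 and 101 in BL6 in BMP/FGF. The BMP libraries lay above all others, 1.54-fold over EGF/FGF (log2 fold change 0.63 ± 0.09, FDR = 4.86e-06), and BMP/FGF was 1.35-fold below BMP (-0.44 ± 0.09, FDR = 0.00089). Between BMP/FGF and EGF/FGF Wnt5a differed by 0.19 ± 0.09 (FDR = 0.0665), which passed without ANS4 BMP/FGF replicate 2, either BL6 BMP library or BL6 EGF/FGF replicate 1 (0.20, FDR = 0.028 without BL6 BMP replicate 2). Wnt5b held 37.3 and 38.7 CPM in ANS4 and 36.7 and 34.0 in BL6 in EGF/FGF, 64.9 and 68.5 in ANS4, 47.8 and 47.9 in BL6 in BMP, and 57.1 and 58.6 in ANS4, 55.0 and 59.8 in BL6 in BMP/FGF. Here both quiescent conditions stood above EGF/FGF, 1.52-fold in BMP (FDR = 9.1e-06) and 1.59-fold in BMP/FGF (FDR = 3.11e-06), while over both lines BMP and BMP/FGF overlapped (0.06 ± 0.09, FDR = 0.632). Adding FGF2 to BMP4 went with lower Wnt5a, called in ANS4 (-0.73, FDR = 1.04e-07) and not in BL6 (-0.14, FDR = 0.0767). It also went with higher Wnt7a and Wnt7b, and with a Wnt5b value that differed in direction between the lines.

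Wnt9a had the largest rise among the ligands. Its EGF/FGF libraries held 2.74 and 1.85 CPM in ANS4 and 1.77 and 1.77 in BL6, the BMP libraries 10.9 and 10.5 in ANS4, 12.3 and 13.6 in BL6, and the BMP/FGF libraries 7.23 and 7.92 in ANS4, 8.96 and 9.38 in BL6. No groups overlapped. Wnt9a was 5.67-fold higher in BMP (log2 fold change 2.5 ± 0.15, FDR = 2.79e-11), 4.12-fold higher in BMP/FGF (2.04 ± 0.15, FDR = 7.67e-10) and 1.38-fold lower in BMP/FGF than under BMP (FDR = 0.00604). Wnt4 was low, at 5 to 14 counts (EGF/FGF), 16 to 26 (BMP) and 24 to 37 (BMP/FGF). It was 2.12-fold higher in BMP (FDR = 0.00289) and 3.04-fold higher in BMP/FGF (FDR = 5e-05) than in EGF/FGF. In ANS4 the first of these did not pass (log2 fold change 0.64, FDR = 0.134). A difference of Wnt4 between the quiescent conditions (0.52 ± 0.25, FDR = 0.108) passed without BL6 BMP replicate 1 (0.72, FDR = 0.0441). Wnt2b, at 5 to 20 counts, was called in no comparison, and its lower value in BMP/FGF than under BMP (-0.85 ± 0.34, FDR = 0.0556) passed without ANS4 BMP replicate 2 or ANS4 BMP/FGF replicate 1 (to -0.99, FDR = 0.0401).

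**Figure D3:**
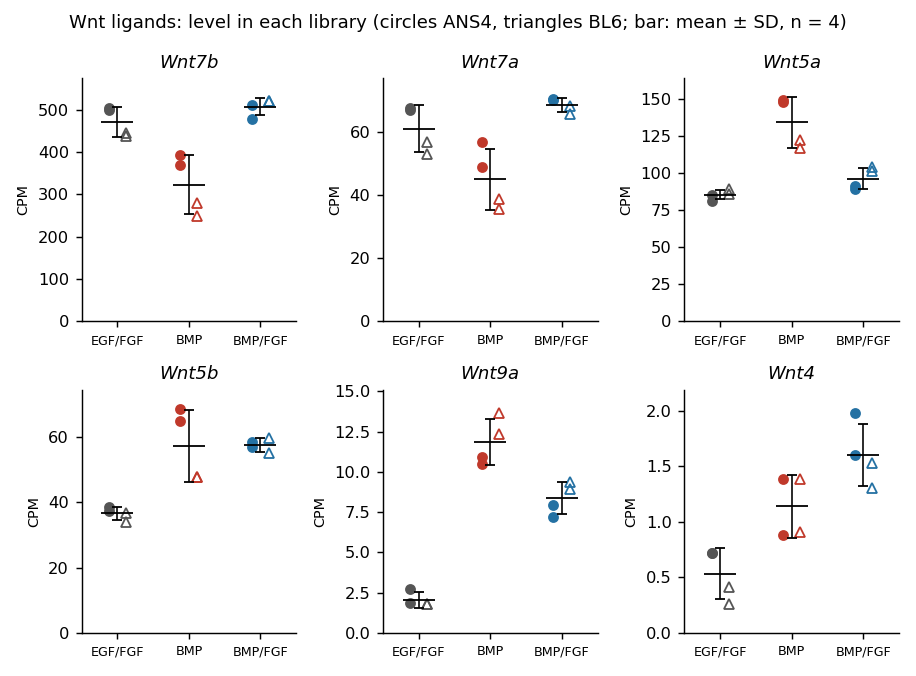
Level in CPM of the 6 ligands with a mean of at least 1 CPM in each library (circles ANS4, triangles BL6), with the mean and SD of 4 libraries per condition and axes from 0. The BMP libraries of Wnt7b lie below all others, those of Wnt5a above all others, and within BMP the BL6 libraries lie below ANS4 for Wnt7b, Wnt7a, Wnt5a and Wnt5b.

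All 10 Frizzled genes and both co-receptors were tested, and they did not move as a block. Per kilobase, Fzd3 stood first in each condition at 35.6 ± 1.82, 64.6 ± 6.43 and 50.5 ± 6.60 CPM per kilobase in EGF/FGF, BMP and BMP/FGF, followed by Fzd1 at 31.8 ± 1.84, 28.3 ± 3.66 and 34.7 ± 1.46, and in EGF/FGF the libraries of this pair touched. In BMP, Fzd7 (27.4 ± 6.88) could not be told from Fzd1. Fzd4, Fzd6, Fzd8 and Fzd9 averaged below 3 CPM per kilobase in each condition. Against EGF/FGF, 5 of the 12 receptors rose and 5 fell in BMP, and the same numbers rose and fell in BMP/FGF (83.3% called in each, beside 79% and 78.1% of all genes). Between BMP/FGF and BMP, 7 were lower and 2 higher (75% called beside 40.8% of all genes, with 21.5% of all genes lower and 19.2% higher).

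Fzd7 and Fzd3 were the abundant receptors that rose. Fzd7, a receptor for canonical and non-canonical Wnts, held 64.2 and 66.0 CPM in ANS4 and 61.8 and 64.9 in BL6 in EGF/FGF, 150.1 and 152 in ANS4, 101 and 93.7 in BL6 in BMP, and 79.3 and 84.0 in ANS4, 82.8 and 78.9 in BL6 in BMP/FGF. The 3 conditions did not overlap, and within BMP the lines were far apart. Fzd7 was 1.87-fold higher in BMP (log2 fold change 0.91 ± 0.11 SE, edgeR FDR = 5.85e-07), 1.28-fold higher in BMP/FGF (0.35 ± 0.11, FDR = 0.0072) and 1.47-fold lower in BMP/FGF than under BMP (-0.55 ± 0.11, FDR = 0.000647). Fzd3, known for planar polarity and axon guidance, held 481 and 458 CPM in ANS4 and 424 and 453 in BL6 in EGF/FGF, 883 and 855 in ANS4, 849 and 701 in BL6 in BMP, and 561 and 580.3 in ANS4, 709 and 721 in BL6 in BMP/FGF. It rose 1.78-fold in BMP (FDR = 3.87e-07) and 1.43-fold in BMP/FGF (FDR = 0.000111), with no overlap. Its lower value in BMP/FGF than under BMP (-0.32 ± 0.10, FDR = 0.0151) came with overlapping libraries and was lost without either ANS4 BMP/FGF library (to -0.24, FDR = 0.0702). Fzd8 ran over 6.99 to 8.02 CPM (EGF/FGF), 13.5 to 19.6 (BMP) and 9.31 to 11.9 (BMP/FGF), and was 2.03-fold higher in BMP (FDR = 8.29e-07), 1.35-fold higher in BMP/FGF (FDR = 0.00648) and 1.51-fold lower in BMP/FGF than under BMP (FDR = 0.00108).

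Fzd10 and Fzd4 fell in both quiescent conditions. Fzd4, the Norrin receptor as well as a Wnt receptor, ran over 8.02 to 11.1 CPM (EGF/FGF), 3.38 to 4.04 (BMP) and 3.10 to 4.51 (BMP/FGF). It was 2.60-fold lower in BMP (log2 fold change -1.38 ± 0.14, FDR = 4.63e-08) and 2.61-fold lower in BMP/FGF (-1.38 ± 0.14, FDR = 4.86e-08). Fzd10 ran over 28.6 to 33.0 CPM (EGF/FGF), 14.3 to 16.0 (BMP) and 11.2 to 13.9 (BMP/FGF), 2.09-fold and 2.44-fold below EGF/FGF (FDR = 1.01e-09 and 1e-10). A lower Fzd10 in BMP/FGF than under BMP (FDR = 0.0485) was lost on leaving out any 1 library other than BL6 BMP replicate 1 and BL6 BMP/FGF replicate 2 (to -0.17, FDR = 0.172). Neither gene overlapped between EGF/FGF and a quiescent condition. The co-receptor Lrp5 likewise fell, at 62.6 to 67.4 CPM (EGF/FGF), 43.7 to 49.7 (BMP) and 40.7 to 46.2 (BMP/FGF) (log2 fold change -0.52 ± 0.06 and -0.57 ± 0.06, FDR = 6.33e-07 and 1.83e-07). Its partner Lrp6 measured 91.2 ± 5.00 CPM in EGF/FGF, 94.1 ± 12.8 in BMP and 65.9 ± 4.83 in BMP/FGF (mean ± SD, n = 4). Lrp6 was lower in BMP/FGF than in EGF/FGF (-0.46 ± 0.07, FDR = 9.88e-06) and than in BMP (-0.47 ± 0.07, FDR = 3.83e-05), with all BMP/FGF libraries below the others, and its BMP and EGF/FGF libraries overlapped (0.02 ± 0.07, FDR = 0.823).

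Of the other Frizzled genes, Fzd2 and Fzd5 were lower and Fzd1 and Fzd9 higher in BMP/FGF than under BMP. Fzd5 measured 33.3 ± 3.95 CPM in EGF/FGF, 40.7 ± 6.89 in BMP and 22.1 ± 1.69 in BMP/FGF, and all its BMP/FGF libraries lay below all others. It was 1.79-fold lower in BMP/FGF than under BMP (log2 fold change -0.84 ± 0.11, FDR = 1.82e-05) and 1.5-fold lower than in EGF/FGF (FDR = 0.000162). Fzd2 was 1.34-fold lower in BMP/FGF than under BMP (FDR = 0.000576) and 1.20-fold higher in BMP than in EGF/FGF (FDR = 0.00839), the latter with overlapping libraries. Its value in BMP/FGF against EGF/FGF (-0.17 ± 0.08, FDR = 0.0741) passed without BL6 BMP replicate 1 (-0.16, FDR = 0.0378). Fzd1 and Fzd9 went the other way, higher in BMP/FGF than under BMP by 0.34 ± 0.09 (FDR = 0.0047) and 0.79 ± 0.15 (FDR = 0.000577), with no overlap. Fzd9 ran over 3.70 to 5.96 CPM (EGF/FGF), 2.40 to 3.87 (BMP) and 5.05 to 6.10 (BMP/FGF), and Fzd1 over 123 to 140.1 CPM (EGF/FGF), 102 to 133 (BMP) and 137 to 152 (BMP/FGF). Fzd6 ran over 1.49 to 2.30 CPM (EGF/FGF), 2.04 to 3.08 (BMP) and 1.91 to 2.99 (BMP/FGF) and was 1.44-fold higher in BMP/FGF than in EGF/FGF (FDR = 0.0244).

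Several of these receptor calls lay close to the threshold and were lost when 1 of several libraries was left out, and the value given is the one with the highest FDR unless a range is given. In BMP against EGF/FGF, the Fzd1 call (log2 fold change -0.20, FDR = 0.0437) was lost without ANS4 EGF/FGF replicate 2 or any 1 BL6 library of the compared conditions (to -0.12, FDR = 0.186). The Fzd5 call there (0.26, FDR = 0.0427) was lost on leaving out any 1 ANS4 library or either BL6 BMP/FGF library (to 0.17, FDR = 0.182, and without a BMP/FGF library, none of which is compared here, 0.25 with FDR = 0.0555 to 0.058), and the Fzd9 call (-0.45, FDR = 0.0142) without ANS4 EGF/FGF replicate 2 or BL6 BMP replicate 1 (to -0.33, FDR = 0.0718). As to BMP/FGF against EGF/FGF, the Fzd6 call was lost without ANS4 BMP/FGF replicate 2, ANS4 EGF/FGF replicate 2 or BL6 BMP/FGF replicate 1 (to 0.41, FDR = 0.103). The Fzd9 call there (0.34, FDR = 0.0445) was lost on leaving out any 1 library except ANS4 EGF/FGF replicate 2 and the BL6 BMP pair (0.29 to 0.35, FDR = 0.0506 to 0.122). Fzd6 in BMP against EGF/FGF (0.38 ± 0.20, FDR = 0.0977) passed without BL6 EGF/FGF replicate 1 (0.53, FDR = 0.0329).

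**Figure D4:**
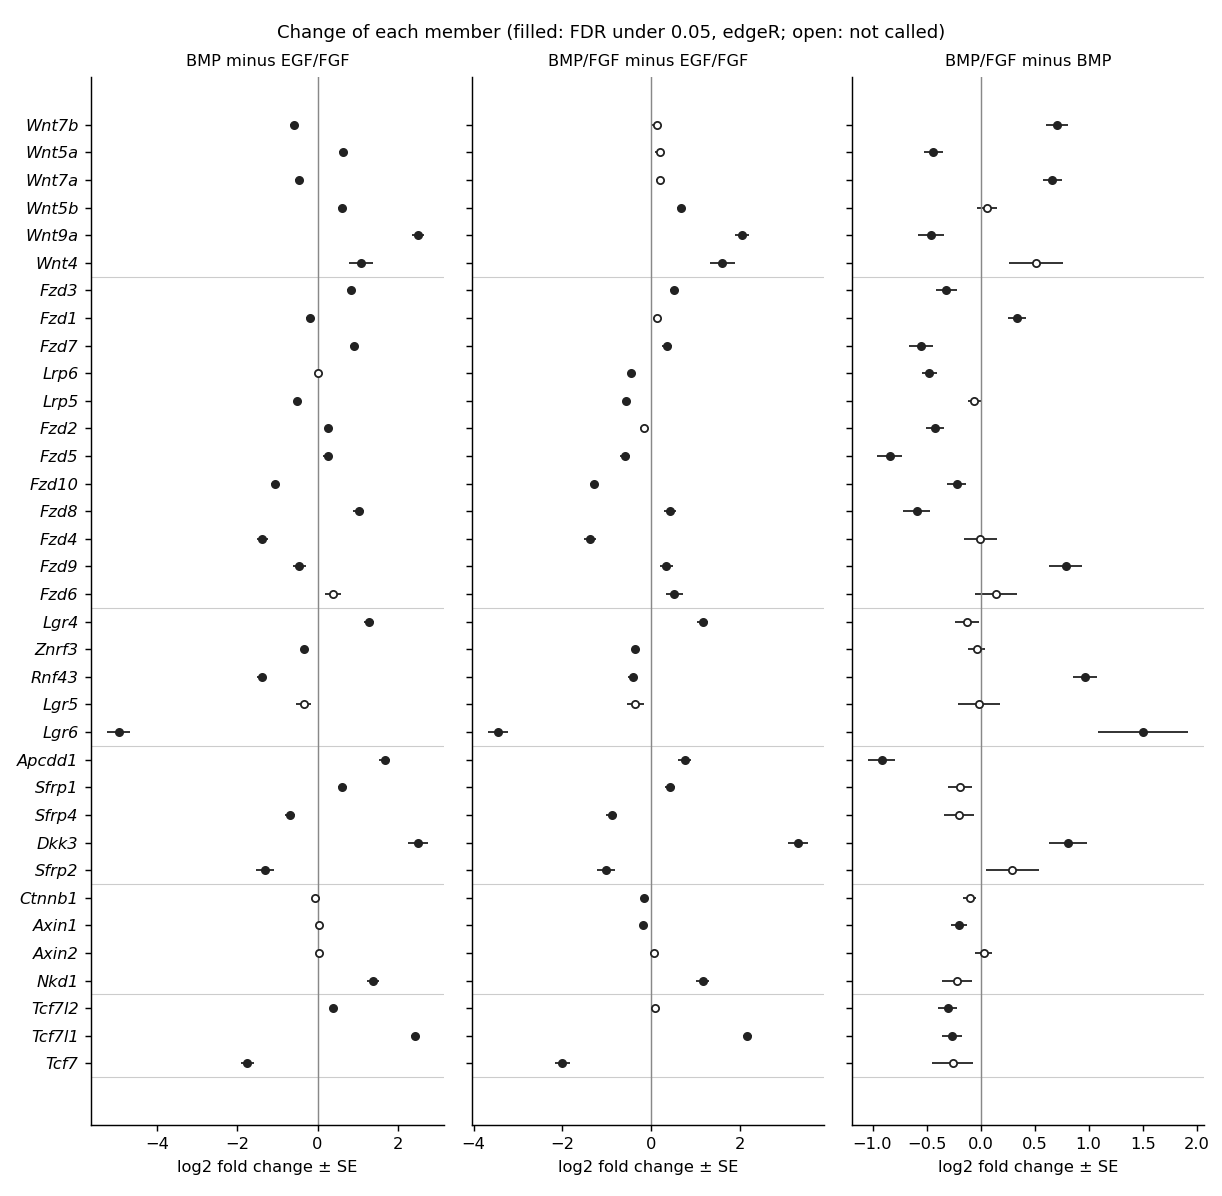
Log2 fold change with its SE for the 35 members in the 3 comparisons, each panel with its own scale. Filled points passed FDR under 0.05 (edgeR) and open points did not. Lgr6 lies far left in the comparisons with EGF/FGF, at -4.95 and -3.45, and Axin2 and Lgr5 are open in every panel.

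In the R-spondin arm, Lgr4 and Lgr6 changed in opposite directions. Lgr6, an R-spondin receptor known from hair follicle stem cells, held 4.60 and 4.58 CPM in ANS4 and 8.19 and 8.34 in BL6 in EGF/FGF. In BMP it held 0.330 and 0.0553 in ANS4, 0.107 and 0.322 in BL6, which is 1 to 6 counts per library, and in BMP/FGF 0.535 and 0.482 in ANS4, 0.760 and 0.491 in BL6, or 9 to 14 counts. No groups overlapped, and in EGF/FGF the BL6 level was higher than that of ANS4. Lgr6 was 31.0-fold lower in BMP (log2 fold change -4.95 ± 0.28 SE, edgeR FDR = 1.56e-11) and 10.9-fold lower in BMP/FGF (-3.45 ± 0.23, FDR = 1.91e-10). It was 2.83-fold higher in BMP/FGF than under BMP (1.5 ± 0.42, FDR = 0.00851), a difference between small counts that passed in BL6 (FDR = 0.0308) and not in ANS4 (1.36, FDR = 0.105). Lgr4, the widely expressed receptor of the group, held 17.0 and 13.6 CPM in ANS4 and 13.0 and 12.5 in BL6 in EGF/FGF, 38.9 and 39.1 in ANS4, 31.5 and 30.1 in BL6 in BMP, and 29.4 and 27.4 in ANS4, 35.5 and 31.7 in BL6 in BMP/FGF. It rose 2.44-fold (FDR = 1.67e-08) and 2.24-fold (FDR = 7.7e-08) over EGF/FGF. Lgr5, a stem cell marker of gut epithelium, ran over 2.59 to 2.98 CPM (EGF/FGF), 1.43 to 3.31 (BMP) and 1.98 to 2.62 (BMP/FGF) and was called in no comparison. In BMP its ANS4 libraries (1.43 and 1.66 CPM) lay below its BL6 libraries (3.31 and 2.95), and without BL6 BMP replicate 1 the difference from EGF/FGF passed (-0.48, FDR = 0.0375). Within ANS4 it was -0.85 (FDR = 0.00302) and within BL6 0.05 (FDR = 0.824), and the lines did not differ at the threshold (FDR = 0.0774). A limma test of the authors' log2 values called Lgr5 lower in BMP than in EGF/FGF (-0.29, FDR = 0.0447). With only the 8 libraries compared, edgeR called it lower in BMP/FGF than in EGF/FGF (-0.35, FDR = 0.0449). The ligand Rspo1 had 3 to 9 counts with EGF/FGF, 14 to 19 with BMP and 11 to 21 with BMP/FGF and rose in both (log2 fold change 1.56 ± 0.36 and 1.61 ± 0.36, FDR = 0.000664 and 0.000487).

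The receptor-removing ligases were lower in quiescence. Rnf43 held 17.2 and 17.5 CPM in ANS4 and 15.6 and 17.3 in BL6 in EGF/FGF, 6.32 and 5.42 in ANS4, 7.59 and 6.87 in BL6 in BMP, and 14.8 and 12.3 in ANS4, 11.5 and 11.5 in BL6 in BMP/FGF. The conditions stood in 3 separate bands. Rnf43 was 2.62-fold lower in BMP than in EGF/FGF (log2 fold change -1.39 ± 0.11, FDR = 1.48e-09), 1.34-fold lower in BMP/FGF (-0.42 ± 0.10, FDR = 0.00103) and 1.96-fold higher in BMP/FGF than under BMP (0.97 ± 0.11, FDR = 2.73e-06), the last in ANS4 and in BL6 (FDR = 2.72e-06 and 0.000173). Znrf3 ran over 28.4 to 30.8 CPM (EGF/FGF), 22.8 to 25.7 (BMP) and 21.1 to 23.9 (BMP/FGF). It fell by a similar amount in both conditions (log2 fold change -0.33 ± 0.07 and -0.37 ± 0.07, FDR = 0.000531 and 0.000202), and BMP and BMP/FGF overlapped (-0.04 ± 0.07, FDR = 0.72). A difference between the response of Rnf43 and that of Znrf3 was not tested.

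Among the secreted and surface inhibitors, Dkk3, Apcdd1, Sfrp1 and Sfrp5 rose and Sfrp2 and Sfrp4 fell in both quiescent conditions. Dkk3, the divergent member of the Dickkopf family, held 0.621 and 0.925 CPM in ANS4 and 0.783 and 0.417 in BL6 in EGF/FGF, 4.18 and 4.87 in ANS4, 3.53 and 3.38 in BL6 in BMP, and 5.51 and 7.76 in ANS4, 5.76 and 8.07 in BL6 in BMP/FGF. No groups overlapped. Dkk3 was 5.65-fold higher in BMP (log2 fold change 2.5 ± 0.24 SE, edgeR FDR = 2.75e-08), 9.90-fold higher in BMP/FGF (3.31 ± 0.23, FDR = 2.56e-10) and 1.75-fold higher in BMP/FGF than under BMP (0.81 ± 0.17, FDR = 0.0012), the last passing in BL6 and not in ANS4 (0.55, FDR = 0.0587). Apcdd1, a membrane protein that binds Wnt and Lrp5, held 6.05 and 6.01 CPM in ANS4 and 4.70 and 4.07 in BL6 in EGF/FGF, 17.4 and 13.7 in ANS4, 16.4 and 19.6 in BL6 in BMP, and 10.1 and 9.48 in ANS4, 7.76 and 7.52 in BL6 in BMP/FGF. It was highest in BMP, 3.18-fold over EGF/FGF (1.67 ± 0.13, FDR = 2.15e-09), and BMP/FGF stood 1.69-fold over EGF/FGF (FDR = 9.3e-05) and 1.88-fold below BMP (-0.91 ± 0.13, FDR = 2.17e-05). Dkk3 and Apcdd1 moved in opposite directions between the quiescent conditions.

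The Sfrp genes encode decoys with a Frizzled-like domain. Sfrp5 was at or near 0 in EGF/FGF, with 0 to 2 counts per library and 3 in all, against 14 to 27 (BMP) and 17 to 24 (BMP/FGF). The summed counts per depth were 31.4 times higher in BMP (95% exact interval 10.4 to 155, counting error only) and 27.4 times higher in BMP/FGF (9.04 to 136). Its edgeR FDR was 1.37e-07 and 3.14e-07, and no difference between BMP/FGF and BMP was called (FDR = 0.684). Sfrp1 ran over 4.54 to 5.53 CPM (EGF/FGF), 6.66 to 8.68 (BMP) and 6.42 to 7.44 (BMP/FGF) and rose by 0.62 and 0.43 on the log2 scale (FDR = 8.2e-05 and 0.00259). Sfrp4 ran over 5.11 to 5.69 CPM (EGF/FGF), 3.13 to 3.87 (BMP) and 2.24 to 3.37 (BMP/FGF), and Sfrp2 over 1.51 to 1.95 CPM (EGF/FGF), 0.591 to 0.825 (BMP) and 0.652 to 1.02 (BMP/FGF). Both lay below EGF/FGF in every quiescent library, Sfrp4 at -0.69 and -0.89 (FDR = 9.82e-05 and 7.57e-06) and Sfrp2 at -1.31 and -1.01 (FDR = 2.15e-05 and 0.000233). Notum, a secreted enzyme that strips the lipid from Wnts, held 7 to 20 counts and was called in no comparison. Between BMP/FGF and BMP the log2 fold changes of the Sfrp genes and Notum ran from -0.20 to 0.30, with FDR from 0.192 up.

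The change from EGF/FGF to BMP differed between the lines for some members. That change adds BMP4 and also withdraws EGF and FGF2, and the design cannot tell these apart. The line difference was tested as an interaction of line and condition, given here as BL6 minus ANS4 on the log2 scale. In BMP against EGF/FGF it passed for 7 of 41 members (8.49% of all genes passed, 4.64% with the BL6 value higher), all with a lower value in BL6: Wnt7b, Wnt5a, Wnt5b, Fzd1, Fzd7, Fzd5 and Tcf7. Fzd7 rose by 1.21 in ANS4 and 0.57 in BL6, a difference of -0.64 (edgeR FDR = 0.000442). Fzd5 rose in ANS4 (0.62, FDR = 5.66e-06) and stood at -0.11 in BL6 (FDR = 0.271), a difference of -0.73 (FDR = 0.00188). Fzd1 stood at 0.04 in ANS4 (FDR = 0.63) and fell in BL6 (-0.44, FDR = 8.88e-06). For Fzd1 and Fzd5 the value over both lines lay between the separate values and each call came from 1 line. Wnt5a rose by 0.83 and 0.40, Wnt5b by 0.81 and 0.39, and Wnt7b was at -0.39 and -0.79 in ANS4 and BL6. Tcf7 fell in both, at -1.31 and -2.20. The line differences of Tcf7, Wnt5b and Wnt7b were lost on leaving out single libraries: for Tcf7 ANS4 BMP replicate 2, ANS4 EGF/FGF replicate 2 or BL6 EGF/FGF replicate 1 (to -0.67, FDR = 0.13), for Wnt5b those of Tcf7 and ANS4 EGF/FGF replicate 1 (to -0.35, FDR = 0.114), and for Wnt7b ANS4 EGF/FGF replicate 1 or BL6 EGF/FGF replicate 2 (to -0.37, FDR = 0.0577). The count itself ran from 5 to 12, with 12 without BL6 BMP replicate 1.

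FGF2 added to BMP4 also gave different values in the lines. Between BMP/FGF and BMP, 8 of 41 members passed the interaction (13.5% of all genes, 7.24% with the BL6 value higher), all higher in BL6: Wnt7b, Wnt5a, Wnt7a, Wnt5b, Lgr4, Fzd3, Fzd1 and Fzd7. This comparison and the one before share the BMP libraries, so a BMP library with a deviating value enters both with opposite signs. Wnt7b and Wnt7a were higher in BMP/FGF in both lines, by 0.37 and 0.40 in ANS4 and by 1.06 and 0.93 in BL6 (differences 0.70 and 0.52, edgeR FDR = 0.000203 and 0.0055). Wnt5a and Fzd7 were lower in ANS4 (-0.73 and -0.89), and in BL6 stood at -0.14 (FDR = 0.0767) and -0.18 (FDR = 0.0314). Fzd3 was lower in ANS4 (-0.61, FDR = 6.47e-06) and measured -0.03 in BL6 (FDR = 0.753). Wnt5b fell in ANS4 (-0.21, FDR = 0.0323) and rose in BL6 (0.35, FDR = 0.000964), with a difference of 0.56 (FDR = 0.00202). Lgr4 fell in ANS4 (-0.46, FDR = 0.00151) and stood at 0.21 in BL6 (FDR = 0.0956). Fzd1 rose in BL6 (0.58) and measured 0.11 in ANS4 (FDR = 0.241). With each library left out in turn the count stayed at 8 to 12.

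In BMP/FGF against EGF/FGF, which does not use the BMP libraries, 2 of 41 members differed between the lines (4.82% of all genes, 3.08% with the BL6 value higher), Lgr4 by 0.55 (edgeR FDR = 0.0464) and Fzd3 by 0.47 (FDR = 0.0169), both higher in BL6. The Lgr4 call was lost on leaving out any 1 library except ANS4 EGF/FGF replicate 2 and the BL6 BMP pair (to 0.37, FDR = 0.232). The Fzd3 call was lost without either ANS4 or BL6 BMP/FGF library, ANS4 EGF/FGF replicate 1 or BL6 EGF/FGF replicate 1 (to 0.42, FDR = 0.1), and the count ran from 0 to 4. The lines also stood apart in their markers within BMP. The 10 neuroblast and young neuron markers summed to 1402 and 1478 CPM in ANS4 BMP and to 2151 and 2279 in BL6 BMP, beside 592 and 615 against 589 and 595 in EGF/FGF and 1066 and 1070.1 against 968 and 993 in BMP/FGF. The 7 astrocyte markers summed to 6241 and 6328 CPM in ANS4 BMP and 4974 and 5046 in BL6 BMP, and the 9 oligodendrocyte lineage markers to 809 and 843 against 1141 and 1311. The part of these markers in the line differences was not tested. The BL6 BMP pair also showed the greatest distance between replicates of any pair, a chi-square per degree of freedom of 12.4 over genes against 2.14 to 4.77 in the other 5 pairs. Without both BL6 BMP libraries, 19 members were higher and 14 lower in BMP than in EGF/FGF, and 5 were higher and 10 lower in BMP/FGF than under BMP. The first counts equal those of the full set, but the members were not all the same. Fzd1, called lower in the full set, stood at 0.04 there (edgeR FDR = 0.612). The share of all genes called without these libraries is not given here, so the smaller counts say nothing particular to Wnt genes.

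**Figure D5:**
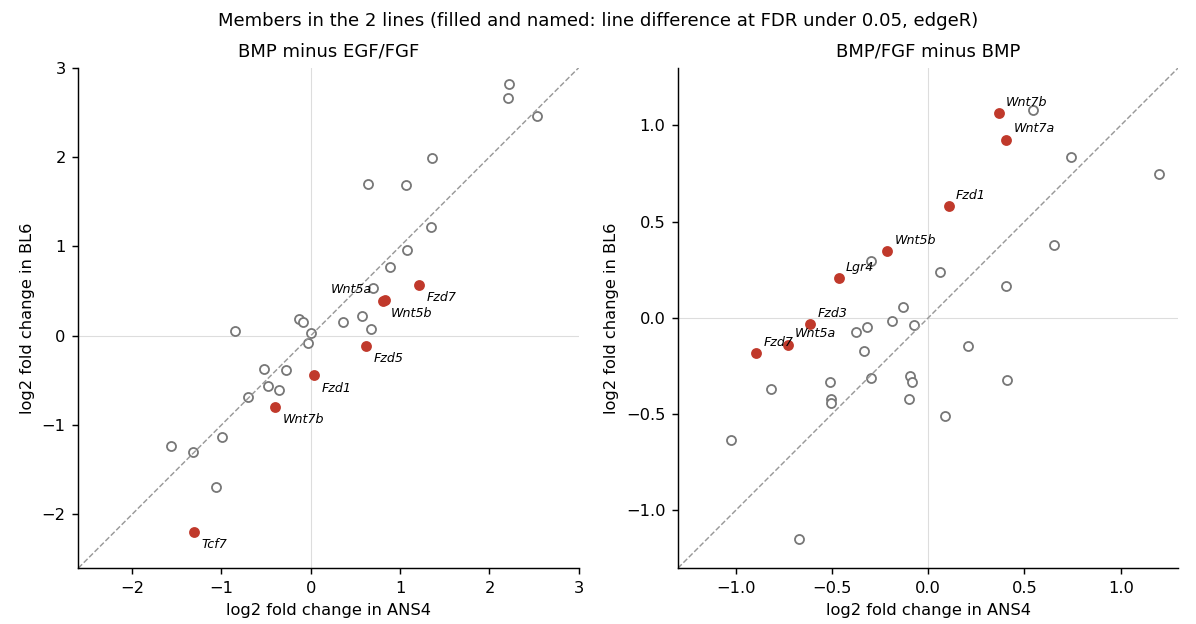
Log2 fold change in BL6 against that in ANS4 for the 35 members, for BMP minus EGF/FGF (left) and BMP/FGF minus BMP (right), which share the BMP libraries. The dashed line marks equal change, filled and named points passed the interaction test at FDR under 0.05, and 1 member, Lgr6, lies outside the axes of each panel. All named points lie below the dashed line on the left and above it on the right.

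Beyond these members, 91 further genes of the pathway were listed, of which 90 were in the table and 85 were tested. In BMP against EGF/FGF 42 were higher and 29 lower (83.5% called beside 79% of all genes), in BMP/FGF against EGF/FGF 34 and 32 (77.6% beside 78.1%), and in BMP/FGF against BMP 11 and 39 (58.8% beside 40.8%). In the last comparison lower values prevailed among Dishevelled and its partners (8 of 9 lower, 0 higher), the nuclear co-factors (10 of 19 lower, 0 higher) and the destruction complex (8 of 17 lower, 0 higher), beside 21.5% of all genes called lower. The other inhibitors had 4 of 7 lower and 1 higher, and the planar polarity branch 6 of 15 lower and 3 higher. Higher values stood in the secretion genes (3 of 5 higher, 0 lower), and the co-receptors and other receptors went both ways (4 of 13 higher, 3 lower), beside 19.2% of all genes called higher. The largest changes in BMP were those of Frzb, a secreted decoy receptor (log2 fold change 4.09 ± 0.23 SE, edgeR FDR = 1.9e-11), the co-repressor Tle6 (-3.44 ± 0.17, FDR = 3.03e-12), the inhibitor Draxin (3.30 ± 0.07, FDR = 1.17e-16) and Apc2, an APC relative (3.12 ± 0.13, FDR = 3.74e-13). For BMP/FGF against EGF/FGF they were Tle6 (-3.31), Frzb (3.24), the formin Daam2 (3.16) and Apc2 (2.67). In BMP/FGF against BMP they were the polarity cadherins Celsr3 (-1.40 ± 0.12, FDR = 1.44e-07) and Celsr1 (-1.03 ± 0.09, FDR = 1.08e-07), Draxin (-1.07) and Frzb (-0.85). The planar polarity branch had 11 of 15 genes above EGF/FGF and 2 below it in BMP, with 11 above and 3 below in BMP/FGF, beside 40.2% and 40% of all genes called higher.

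Of 22 genes listed as direct targets of the pathway in other tissues, 15 were tested, and they moved both ways. In BMP 6 were higher and 5 lower than in EGF/FGF (73.3% called beside 79% of all genes), in BMP/FGF 5 and 7 (80% beside 78.1%), and between BMP/FGF and BMP 3 and 7 (66.7% beside 40.8%). The largest changes in BMP were falls of Ccnd1, cyclin D1 (log2 fold change -5.25 ± 0.14, FDR = 7.63e-16), and of Dusp6, an ERK phosphatase (-4.23 ± 0.07, FDR = 1.85e-17), and rises of the receptor Tnfrsf19 (2.27 ± 0.10, FDR = 4.5e-13) and of Id2 (2.07 ± 0.08, FDR = 1.24e-13). Ccnd1 and Dusp6 are also known targets of growth factor signalling, and Id2 of BMP signalling, so they do not report on Wnt alone. The same 4 genes led in BMP/FGF against EGF/FGF, at -4.50, -2.94, 2.12 and 1.49. Between BMP/FGF and BMP the largest were Dusp6 (1.3), Ccnd2 (-1.18), Ccnd1 (0.75) and Efnb1 (-0.75).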

How the data were processed

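RNA from 12 cultures was sequenced on a BGISEQ instrument from low-input libraries. Per the labels and the study's methods, the authors trimmed reads with Trim Galore 0.5.0, quantified transcripts of mm10 with kallisto 0.44.0 and summed them to genes. The annotation release is not given in the sources used here. They deposited estimated counts per gene as whole numbers, and a table of log2 values made by the rlog transformation of DESeq2 1.27.32.

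The estimated counts were tested with edgeR 4.0.16 (R 4.3.3): genes were filtered by filterByExpr over condition and line, scaled by TMM and fitted by quasi-likelihood with line and condition as terms over all 12 libraries. Tests were two-sided, and p-values were adjusted by Benjamini and Hochberg over 13641 genes. Line differences came from a model with their interaction. Errors are SE of log2 fold changes and SD of CPM. A log2 fold change past 1.5 was used as a further threshold. Estimated counts of similar genes can share reads, and intervals cover counting error only. The deposited log2 values served only for a limma 3.58.1 alternative, and DESeq2 1.42.0 gave another. The scripts were tested on simulated data. Members with a mean of at least 1 CPM are named in the comparisons, with the rarer tested ones given by counts. The members, gene lists and marker lists were chosen with earlier results of these data known.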

Additional observations from a re-analysis of the deposited data

Results flagged for a closer look

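Line differences, tested as an interaction of line and condition, are given here as BL6 minus ANS4 on the log2 scale with their edgeR FDR. In BMP against EGF/FGF they were Wnt7b (-0.40, 0.0116), Wnt5a (-0.43, 0.00562), Wnt5b (-0.42, 0.0201), Fzd1 (-0.48, 0.00454), Fzd7 (-0.64, 0.000442), Fzd5 (-0.73, 0.00188) and Tcf7 (-0.89, 0.0237). In BMP/FGF against EGF/FGF they were Lgr4 (0.55, 0.0464) and Fzd3 (0.47, 0.0169). For BMP/FGF against BMP they were Wnt7b (0.70, 0.000203), Wnt5a (0.59, 0.000439), Wnt7a (0.52, 0.0055), Wnt5b (0.56, 0.00202), Lgr4 (0.67, 0.0041), Fzd3 (0.58, 0.00167), Fzd1 (0.47, 0.00325) and Fzd7 (0.71, 0.000194). The first and the last share the BMP libraries.

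Single libraries stood apart from the others of their condition in 5 of 105 groups of 4. Chance alone gives about 1 in 20 for 4 interchangeable values. These groups hold 2 lines, so that rate need not hold for them. Axin1 was at 49.7 CPM in ANS4 BMP/FGF replicate 2, with the others at 46.3 to 46.6. Wnt9a was at 2.74 CPM in ANS4 EGF/FGF replicate 1, with the others at 1.77 to 1.85. Znrf3 was at 28.4 CPM in ANS4 EGF/FGF replicate 2 (others 30.6 to 30.8) and at 21.1 CPM in ANS4 BMP/FGF replicate 1 (others 23.7 to 23.9). Rnf43 was at 15.6 CPM in BL6 EGF/FGF replicate 1, with the others at 17.2 to 17.5.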

How the results depend on the processing

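Across the alternatives, 2727 values of single members kept their direction and side of the threshold, 119 were no longer called, 44 became called and 61 changed direction. Of the line differences of called members, 278 were unchanged in this sense, 28 were no longer called and 0 changed direction. DESeq2's size factors and the DESeq2 Wald test kept every count of called members within 1.5 times its value. The Wald test still lost the calls of Fzd9 in BMP/FGF against EGF/FGF (FDR = 0.0667) and of Nkd2 (0.0682) and Fzd10 (0.0502) in BMP/FGF against BMP. It also lost the Tcf7 line difference in BMP against EGF/FGF (0.0532). Limma-trend lost Tcf7l2 in BMP/FGF against BMP (0.0894). With only the 8 libraries compared, the Wnt5b line difference in BMP against EGF/FGF was lost (edgeR FDR = 0.0562). Other settings also moved calls near the threshold. The number of members with a line difference in BMP/FGF against EGF/FGF, 2, was 1 with library size only, 1 with no filter and 6 with only the 8 libraries compared. Between BMP/FGF and BMP, 9 members were lower in BL6 alone, against 14 in both lines, and 5 were higher without both BL6 BMP libraries, against 8. Both settings hold fewer libraries, and the share of all genes called in them is not given here. With each library left out in turn, 18 to 20 members were higher and 12 to 14 lower in BMP against EGF/FGF, 15 to 19 and 12 to 15 in BMP/FGF against EGF/FGF, and 8 to 9 and 10 to 13 in BMP/FGF against BMP, while line differences numbered 5 to 12, 0 to 4 and 8 to 12 in that order. The replicate numbers were not used as pairs in the main test. Deviations of same-numbered libraries correlated at 0.31, -0.18 and -0.12 in ANS4 and at -0.065, 0.0075 and -0.082 in BL6 over 9966 genes. With 2 libraries per line and condition these values cannot exclude a pairing. A replicate block gave 18 and 13, 17 and 14, and 8 and 13 members higher and lower, with Fzd1 (FDR = 0.0639) and Fzd5 (0.0589) in BMP against EGF/FGF and Fzd10 (0.0753) in BMP/FGF against BMP no longer called (edgeR). It changed no other call of a member. The log2 values that changed direction follow, and the causes were not tested. With scaling by library size only these were BMP/FGF against BMP Axin2 (-0.0113). With no filter these were BMP/FGF against BMP Fzd4 (0.00666). With no line term these were BMP/FGF against BMP Fzd4 (0.00127). With only the 8 libraries compared these were BMP/FGF against BMP Lgr5 (0.00575) and Fzd4 (0.00727). With limma-trend on the deposited log2 values these were BMP/FGF against BMP Lgr5 (0.0357). With the filter by condition alone (chosen after seeing the data) these were BMP/FGF against BMP Fzd4 (0.00166). With ANS4 alone these were BMP against EGF/FGF Axin1 (-0.13), Axin2 (-0.0915) and Fzd1 (0.0356), BMP/FGF against EGF/FGF Wnt7b (-0.0166) and Notum (-0.0671), and BMP/FGF against BMP Nkd1 (0.10), Wnt5b (-0.20), Lgr5 (0.42) and Rspo1 (-0.0851). With BL6 alone these were BMP against EGF/FGF Lgr5 (0.0496) and Fzd5 (-0.11), BMP/FGF against EGF/FGF Tcf7l2 (-0.10), and BMP/FGF against BMP Axin2 (-0.15), Lgr4 (0.21), Znrf3 (0.056), Fzd4 (0.29), Sfrp5 (0.14) and Notum (0.11). With both BL6 BMP libraries left out (chosen after seeing the data) these were BMP against EGF/FGF Ctnnb1 (0.00183), Axin1 (-0.11), Axin2 (-0.12) and Fzd1 (0.0353), and BMP/FGF against BMP Nkd1 (0.10), Wnt5b (-0.17), Lgr5 (0.47), Rspo1 (-0.0299), Fzd6 (-0.0148) and Notum (0.0191). With single libraries left out, the ranges that crossed 0 were, for BMP against EGF/FGF Axin1 (-0.0149 to 0.0825), Axin2 (-0.0232 to 0.10) and Lrp6 (-0.0501 to 0.0863) and BMP/FGF against BMP Axin2 (-0.0395 to 0.10), Fzd4 (-0.11 to 0.0818), Lgr5 (-0.14 to 0.14), Notum (-0.31 to 0.19), Rspo1 (-0.0325 to 0.20), Sfrp5 (-0.31 to 0.000142), Wnt5b (-0.00433 to 0.13) and Znrf3 (-0.0754 to 0.00974). Low counts limit the tested members that averaged under 1 CPM in a condition: Dkk3, Lef1, Lgr6, Nkd2, Notum, Rspo1, Sfrp2, Sfrp5, Wnt2b and Wnt4.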
